A study of Mus musculus with 2 samples.

Results

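The 40 genes described here encode the isozymes of glycolysis, gluconeogenesis and the pentose phosphate pathway, with the kinases that set the fate of pyruvate and the level of fructose 2,6-bisphosphate. They were chosen by name from textbook pathways and matched by symbol, and all 40 were found among the 43346 mouse genes of the deposited tables. Total RNA was measured in kidneys of healthy B6NCrl mouse embryos at embryonic day 15.5, male and female pooled, with no treatment or genotype labelled beyond the strain. The only group, embryonic kidney, held 2 biological replicates, each a single library made from 10 ng of RNA. Replicate 1 pooled 78 embryos, with a total expected count of 36244861. Replicate 2 pooled 62 embryos, with a total of 39415002. The spread between the libraries joins that between pools of many embryos and that of library preparation. With a single library a pool, these cannot be told apart, and differences called between the pools below are between libraries. No p-value was computed.

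Glycolysis splits glucose into pyruvate in the cytosol and yields ATP, and lactate dehydrogenase then regenerates NAD+ by turning pyruvate into lactate. Gluconeogenesis runs back from pyruvate to glucose through its own bypass enzymes, and in the adult kidney it is a task of the proximal tubule. The pentose phosphate pathway branches off at glucose 6-phosphate and supplies NADPH and ribose, and growing tissues are known for high glycolysis and the M2 form of pyruvate kinase. Most steps are served by several genes, the isozymes, whose products do the same reaction in different tissues.

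Levels are TPM, a transcript abundance adjusted for length and scaled to a fixed sum, so that different genes can be set side by side. Detection meant at least 1 TPM in each of the libraries. The replicate limit serves below as the measure of spread for each difference. It is the size of the log2 TPM ratio between the libraries that 95% of detected genes of like level stay under. It was 0.92 at 1 to 3 TPM, 0.79 at 3 to 10, 0.37 at 10 to 30, 0.27 at 30 to 100 and 0.25 from 100 TPM, on the log2 scale. For a difference between genes, the limit leaves out whatever acts alike in both libraries, such as the annotated transcripts, as given below for Hk2 and Gapdh.

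Markers of the labelled tissue were present. All 15 kidney-defining genes were detected in both libraries, among them Cited1 of the nephron progenitors at 127 TPM in replicate 1 and 124 TPM in replicate 2, and Wt1 of progenitors and podocytes at 103 TPM in replicate 1 and 105 TPM in replicate 2. Of these 15 genes, 1 lay beyond the replicate limit between the pools. It was Aqp2, the collecting duct water channel, with 54.4 TPM in replicate 1 and 34.5 TPM in replicate 2. All 15 proximal tubule genes were detected too, led by the phosphate transporter Slc34a1 at 95.9 TPM in replicate 1 and 106 TPM in replicate 2 and by Ass1 at 59.6 TPM in replicate 1 and 63.1 TPM in replicate 2, and none of them lay beyond the limit. In whole tissue, fewer cells of a type and less RNA per cell cannot be told apart.

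Of the 40 glucose enzyme genes, 38 (95%) were detected, where 62.3% of nuclear protein-coding genes and 34.9% of all genes were. The exceptions were Hk3 and G6pc. At 100 TPM or more in both libraries were 14 of the 40 (35%), against 6.95% of nuclear protein-coding genes. The summed level of the 40 genes was 9711 TPM in replicate 1 and 9887 TPM in replicate 2. Mean levels reached from 0.69 TPM for Hk3 to 1725 TPM for Gapdh, as the plot of levels by role shows. Ordered by mean TPM, 5 of the 39 steps between neighbouring genes exceeded the replicate limit in both libraries. These steps lay below Ldha, below Pkm, below Ldhb, below Taldo1 and below Pdha1. Neighbours among Gapdh, Eno1 and Ldha, at the top of the order, thus did not differ beyond the limit in both libraries.

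**Figure D1:**
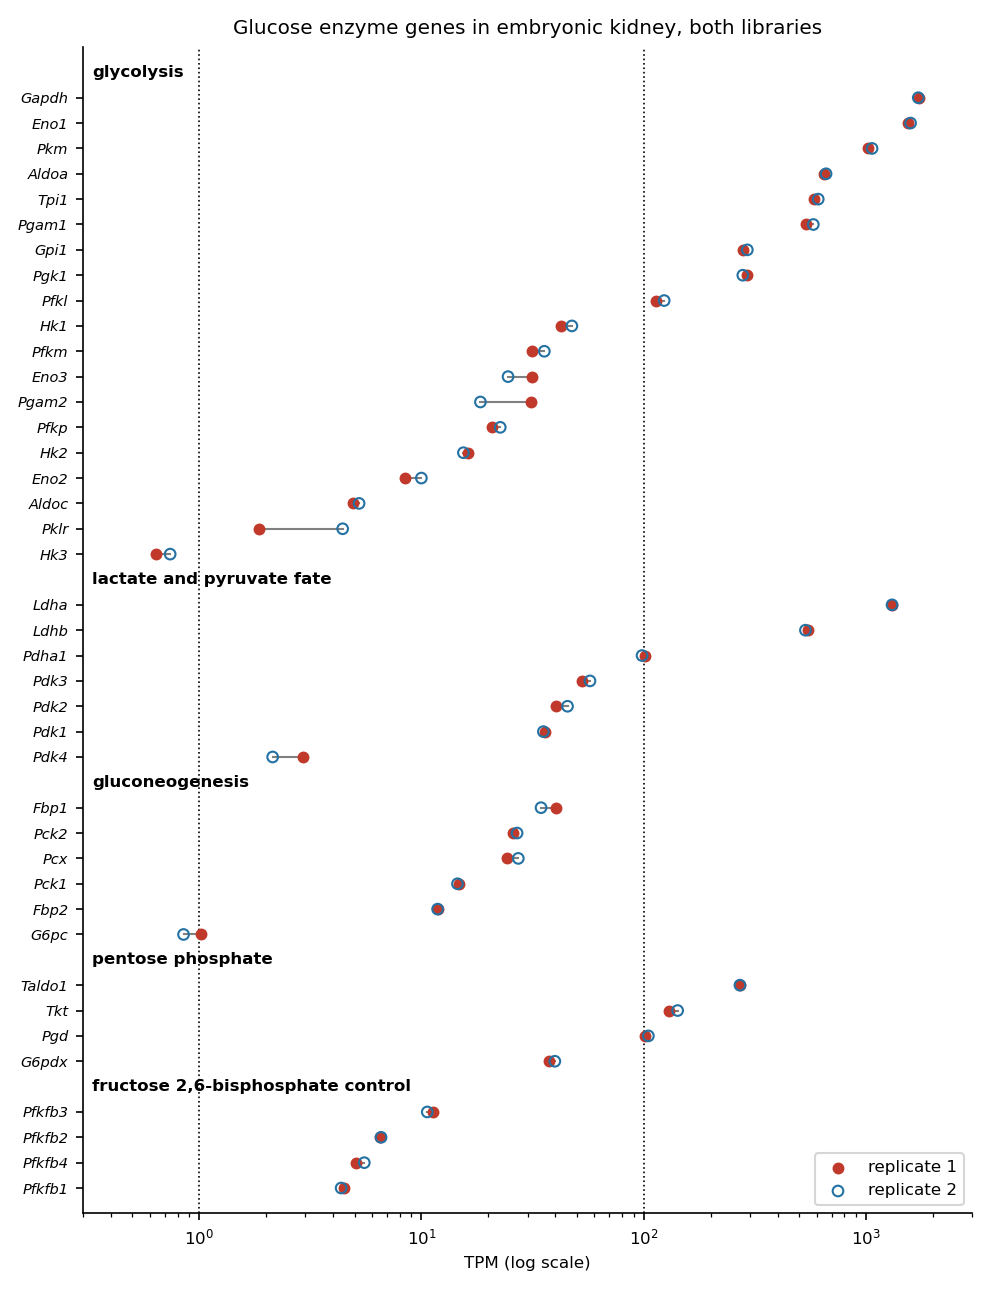
TPM of each of the 40 genes (log axis) in replicate 1 (filled red) and replicate 2 (open blue), ordered by mean level within 5 roles, with dotted lines at 1 and 100 TPM. Most paired points touch, while Pgam2, Eno3, Pklr and Pdk4 show visible gaps; 38 genes lie right of 1 TPM in both libraries.

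The first commitment of glucose, its phosphorylation, had its highest isozyme level in Hk1, the hexokinase of most adult tissues. Hk1 had 42.5 TPM in replicate 1 and 47.5 TPM in replicate 2, and its share of the summed hexokinase TPM was 71.6% in replicate 1 and 74.6% in replicate 2. By reads over 1 transcript length, where Hk2 is lower as given below, the mean share of Hk1 was 83.4%, and by protein-coding transcripts 85.9%, past the 75% used below to call a gene dominant. Hk2, the insulin- and hypoxia-responsive hexokinase of muscle and growing cells, had 16.2 TPM in replicate 1 and 15.4 TPM in replicate 2. Hk3, the hexokinase of white blood cells, had 0.640 TPM in replicate 1 and 0.740 TPM in replicate 2, from 46 reads in each, and was not detected. All 3 pairs of these genes differed beyond the replicate limit. The Hk1 transcripts began at alternative first exons. The leading form, Hk1-202, encodes 918 residues and held 70.7% of Hk1 TPM in replicate 1 and 68.9% in replicate 2. Hk1-201 starts farther upstream on the minus strand of chromosome 10, at 62358362 against 62340542 (mm10), encodes 945 residues and held 28.0% in replicate 1 and 28.3% in replicate 2.

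The other sugar-phosphate steps of the upper pathway had higher levels than hexokinase. Gpi1, which interconverts glucose 6-phosphate and fructose 6-phosphate, had 280 TPM in replicate 1 and 293 TPM in replicate 2. Among the phosphofructokinase genes, which encode the main regulated step of glycolysis, the liver-type Pfkl led with 114 TPM in replicate 1 and 124 TPM in replicate 2. The muscle-type Pfkm had 31.5 TPM in replicate 1 and 35.7 TPM in replicate 2. The platelet-type Pfkp had 20.8 TPM in replicate 1 and 22.6 TPM in replicate 2. The order Pfkl, Pfkm, Pfkp was the same in both libraries, and each of the 3 pairs differed beyond the limit. The closest pair, Pfkm and Pfkp, differed by a mean of 0.61 ± 0.042 on the log2(TPM + 1) scale (SD, n = 2). The summed phosphofructokinase level of 174 ± 11 TPM stood beside a summed hexokinase level of 61.5 ± 3.06 TPM (SD, n = 2).

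Pfkm gave its reads to 2 transcripts with start sites at 98092589 and 98108466 on the plus strand of chromosome 15 (mm10). The upstream form, Pfkm-202, held 51.8% of Pfkm TPM in replicate 1 and 56.8% in replicate 2, and Pfkm-201 held the rest. Both encode 780 residues.

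Aldolase splits fructose 1,6-bisphosphate into 2 trioses. Aldoa, the aldolase of muscle and most embryonic tissue, had 647 TPM in replicate 1 and 661 TPM in replicate 2. Aldoc, the brain form, had 4.90 TPM in replicate 1 and 5.24 TPM in replicate 2. Within this pair Aldoa held 99.2% of TPM in each library. By first exon, the transcript Aldoa-201 held 84.4% of Aldoa TPM in replicate 1 and 85.3% in replicate 2. Aldoa-203, Aldoa-210 and Aldoa-202, which start elsewhere, each held at most 6.76% in either library.

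The highest glycolytic levels were those of Gapdh, Eno1 and Pkm in the lower part of the pathway, where ATP is made. Not every lower step was that high, since Pgk1 was near Gpi1 and below Aldoa of the upper part. Tpi1, which interconverts the trioses, had 586 TPM in replicate 1 and 610 TPM in replicate 2. Gapdh, the oxidising step that makes NADH, had 1732 TPM in replicate 1 and 1719 TPM in replicate 2 and ranked 25 among 21461 nuclear protein-coding genes by mean TPM. Pgk1, the first ATP-yielding step, had 292 TPM in replicate 1 and 279 TPM in replicate 2. These 3 single-gene steps stayed within the replicate limit between the pools. The level of Gapdh depended on how its transcripts were counted, as given below.

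Phosphoglycerate mutase moves the phosphate within 3-phosphoglycerate. Pgam1, the form of most tissues, had 539 TPM in replicate 1 and 580 TPM in replicate 2. Pgam2, the muscle form, had 31.1 TPM in replicate 1 and 18.4 TPM in replicate 2. Pgam1 held 94.6% of the summed TPM of the pair in replicate 1 and 96.9% in replicate 2. Enolase makes phosphoenolpyruvate, and Eno1, the form of most tissues, had 1539 TPM in replicate 1 and 1587 TPM in replicate 2. Eno3, the muscle form, had 31.5 TPM in replicate 1 and 24.5 TPM in replicate 2. Eno2, the neuronal form, had 8.46 TPM in replicate 1 and 9.99 TPM in replicate 2. Eno1 held 97.5% of enolase TPM in replicate 1 and 97.9% in replicate 2, and all 3 enolase pairs differed beyond the limit.

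Pyruvate kinase closes glycolysis. Pkm had 1020 TPM in replicate 1 and 1065 TPM in replicate 2 and held 99.8% of pyruvate kinase TPM in replicate 1 and 99.6% in replicate 2. Pklr, the gene named for liver and red cells, had 1.86 TPM in replicate 1 and 4.42 TPM in replicate 2. The Pkm gene lies on the plus strand of chromosome 9 at 59656368 to 59679375 (mm10) and makes its proteins M1 and M2 from mutually exclusive exons of the same length, 167 nt. The 2 exons are shown because the choice between them sets the form of the enzyme. M1 is the constitutively active form of adult muscle and brain, and M2 is the form of embryonic and proliferating tissue that fructose 1,6-bisphosphate activates. The M1 exon lies at chr9:59675029-59675195 and the M2 exon at chr9:59675568-59675734, both read 5′ to 3′ on the plus strand of mm10 from the GENCODE M21 transcripts. Capitals mark the 64 positions at which they differ, and the other 103 positions (61.7%) are the same.
Pkm M1 exon: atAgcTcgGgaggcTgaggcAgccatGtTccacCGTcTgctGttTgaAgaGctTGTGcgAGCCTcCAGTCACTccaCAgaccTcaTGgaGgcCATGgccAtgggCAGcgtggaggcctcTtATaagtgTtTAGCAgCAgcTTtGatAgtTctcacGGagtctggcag
Pkm M2 exon: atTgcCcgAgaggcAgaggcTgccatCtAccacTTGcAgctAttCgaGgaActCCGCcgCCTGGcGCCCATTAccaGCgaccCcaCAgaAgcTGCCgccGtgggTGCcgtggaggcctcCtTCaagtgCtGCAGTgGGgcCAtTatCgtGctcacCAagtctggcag

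The M2 form made up nearly all Pkm RNA. The transcript with the M2 exon, Pkm-201, had 978 TPM in replicate 1 and 1016 TPM in replicate 2, which was 95.8% of Pkm TPM in replicate 1 and 95.4% in replicate 2. The transcript with the M1 exon, Pkm-202, had 42.8 TPM in replicate 1 and 49.2 TPM in replicate 2, or 4.19% in replicate 1 and 4.62% in replicate 2. The M2 to M1 ratio was 22.9 in replicate 1 and 20.7 in replicate 2, and M2 averaged 95.6 ± 0.304% of Pkm TPM (SD, n = 2). The level of the M1 form was still near that of Hk1. Both transcripts have the same deposited length, 2432 nt, and both encode 531 residues, so length played no part in the share. The M1 transcript is shorter in the M21 annotation, and the exon it carries was taken from there.

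The factors known to choose between these exons were all detected. The repressors of the M1 exon were abundant. Ptbp1 had 326 TPM in replicate 1 and 355 TPM in replicate 2. Hnrnpa1 had 820 TPM in replicate 1 and 804 TPM in replicate 2. Hnrnpa2b1 had 1040 TPM in replicate 1 and 937 TPM in replicate 2. Srsf3, which favours the M2 exon, had 787 TPM in replicate 1 and 717 TPM in replicate 2. Ptbp2, the neuronal relative of Ptbp1, had 35.2 TPM in replicate 1 and 32.6 TPM in replicate 2. Rbm4, which favours the M1 exon, had 48.1 TPM in replicate 1 and 46.3 TPM in replicate 2. Nek2 had 36.8 TPM in replicate 1 and 36.6 TPM in replicate 2. None of the 7 lay beyond the replicate limit between the pools.

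**Figure D2:**
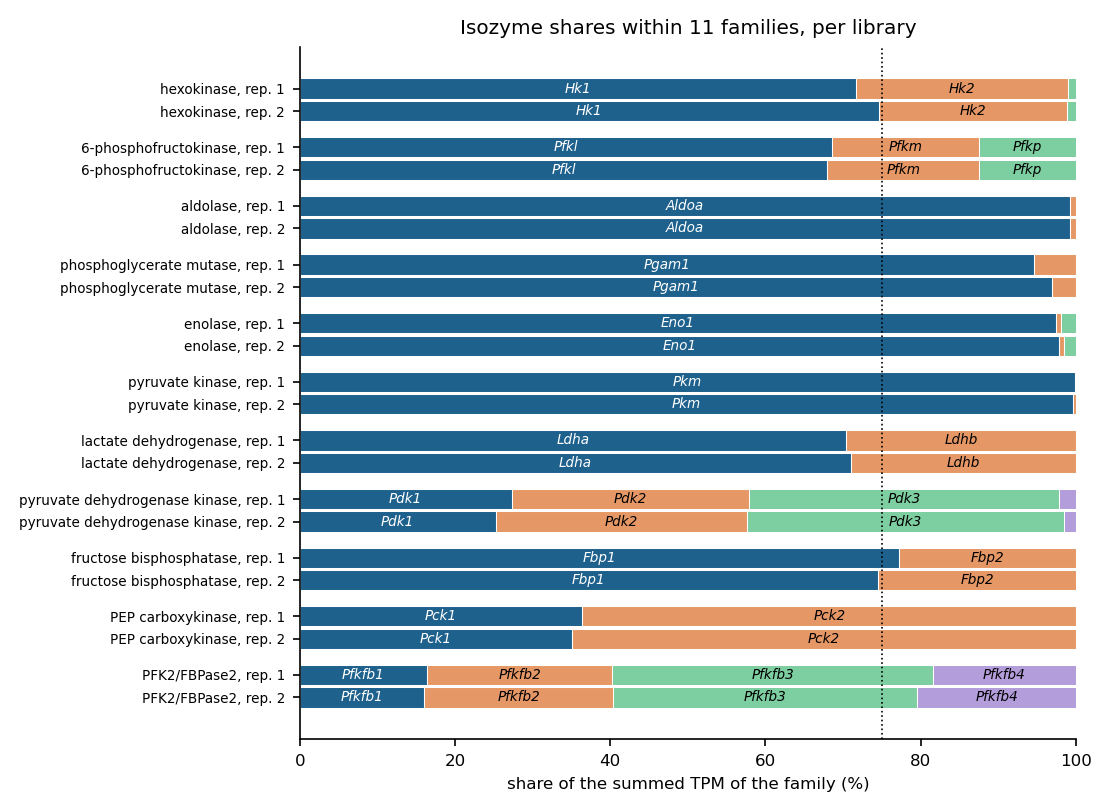
Share of the summed TPM (%) held by each gene in 11 isozyme families, with replicate 1 above replicate 2 and a dotted line at 75%. Aldoa, Pgam1, Eno1 and Pkm fill over 94% of their bars in both libraries, while the pyruvate dehydrogenase kinases and the PFK2/FBPase2 genes split theirs among 3 or more genes.

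A single gene held over 75% of its family's TPM in both libraries in 4 of 11 families, as the plot of shares shows. These families were aldolase (Aldoa and Aldoc), phosphoglycerate mutase, enolase and pyruvate kinase. Hk1 and Fbp1 lay close to that line. Fbp1 held 77.2% in replicate 1 and 74.5% in replicate 2. Of the 27 pairs within families, 22 (81.5%) differed beyond the replicate limit with the same sign in both libraries. That share is near the 77.9% of all pairs of nuclear protein-coding genes, and the 82.2% of pairs of detected ones, that did so, and it says nothing particular to isozymes. The 5 pairs that did not differ beyond the limit were Pdk1 with Pdk2 and 4 pairs of the PFK2/FBPase2 family.

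Pyruvate can be reduced to lactate or enter the mitochondrion. Ldha, which favours lactate formation, had 1305 TPM in replicate 1 and 1310 TPM in replicate 2. Ldhb, which favours the reverse reaction and predominates in heart, had 549 TPM in replicate 1 and 534 TPM in replicate 2. Ldha held 70.4% of the summed TPM in replicate 1 and 71.0% in replicate 2. Pdha1, the catalytic alpha subunit of pyruvate dehydrogenase, had 101 TPM in replicate 1 and 98.3 TPM in replicate 2. Summed lactate dehydrogenase RNA stood at 1849 ± 7.05 TPM (SD, n = 2).

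RNA of the 4 kinases that switch pyruvate dehydrogenase off came mainly from Pdk3, Pdk2 and Pdk1. Pdk3 had 52.6 TPM in replicate 1 and 57.3 TPM in replicate 2. Pdk2 had 40.4 TPM in replicate 1 and 45.4 TPM in replicate 2. Pdk1, a hypoxia-induced gene, had 36 TPM in replicate 1 and 35.4 TPM in replicate 2. Pdk4, the kinase known to rise in fasting muscle and liver, had 2.93 TPM from 206 reads in replicate 1 and 2.14 TPM from 189 reads in replicate 2. Pdk3 exceeded Pdk2 beyond the limit, by a mean of 0.35 ± 0.030 on the log2(TPM + 1) scale (SD, n = 2). Pdk1 minus Pdk3 was -0.61 ± 0.10 on the same scale, also beyond the limit. Pdk1 and Pdk2 did not differ beyond it in both libraries. Counting only protein-coding transcripts, a choice made after seeing the data, put Pdk1 below Pdk2 beyond the limit, at -1.45 on the same scale, and reads over 1 transcript length did so at -0.80.

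The genes that let glucose be made from pyruvate were detected at moderate levels, except the last. Pcx, which carboxylates pyruvate in the mitochondrion, had 24.4 TPM in replicate 1 and 27.3 TPM in replicate 2. Pck2, the mitochondrial phosphoenolpyruvate carboxykinase, had 25.8 TPM in replicate 1 and 26.9 TPM in replicate 2. Pck1, the cytosolic and hormone-regulated form of liver and proximal tubule, had 14.8 TPM in replicate 1 and 14.5 TPM in replicate 2. Pck2 held 63.6% of the summed TPM of the pair in replicate 1 and 65.0% in replicate 2, and the difference of 0.81 ± 0.059 on the log2(TPM + 1) scale (SD, n = 2) was beyond the limit. Fbp1, the fructose bisphosphatase of liver and kidney, had 40.2 TPM in replicate 1 and 34.5 TPM in replicate 2. Fbp2, the muscle form, had 11.9 TPM in replicate 1 and 11.8 TPM in replicate 2. G6pc, which releases free glucose in liver, kidney cortex and gut, had 1.02 TPM from 58 reads in replicate 1 and 0.850 TPM from 52 reads in replicate 2 and so missed the detection threshold in replicate 2. Its ubiquitous relative G6pc3 had 32.5 TPM in replicate 1 and 35.2 TPM in replicate 2, and G6pc2 had 2.39 TPM in replicate 1 and 3.72 TPM in replicate 2. The 6 genes of this role summed to 118 TPM in replicate 1 and 116 TPM in replicate 2. The 19 glycolytic genes summed to 6939 TPM in replicate 1 and 7103 TPM in replicate 2. These sums are of unlike sets, since the 19 include genes of reversible steps that both directions share, such as Gapdh and Eno1. Of the steps that gluconeogenesis bypasses, the mean sums were 61.5 TPM for hexokinase, 174 TPM for phosphofructokinase and 1046 TPM for pyruvate kinase.

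Of the 4 pentose phosphate genes among the 40, Taldo1 and Tkt of the non-oxidative branch had the higher levels. This order is that of the 4 genes and not of whole branches, as Pgls and Rpia, given below, show. Taldo1, transaldolase, had 270 TPM in replicate 1 and 271 TPM in replicate 2. Tkt, transketolase, had 130 TPM in replicate 1 and 142 TPM in replicate 2. In the oxidative, NADPH-yielding branch, Pgd had 102 TPM in replicate 1 and 105 TPM in replicate 2 and G6pdx, the entry enzyme encoded on the X chromosome, had 37.4 TPM in replicate 1 and 39.8 TPM in replicate 2. All 4 genes lay within the replicate limit between the pools.

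The bifunctional enzymes that make and break fructose 2,6-bisphosphate, the strongest activator of phosphofructokinase, had low levels. Pfkfb3, the form with the highest kinase activity and a hypoxia target, had 11.3 TPM in replicate 1 and 10.6 TPM in replicate 2. Pfkfb2, the heart form, had 6.54 TPM in replicate 1 and 6.58 TPM in replicate 2. Pfkfb4, the testis form, had 5.05 TPM in replicate 1 and 5.53 TPM in replicate 2. Pfkfb1, the liver and muscle form, had 4.49 TPM in replicate 1 and 4.35 TPM in replicate 2. All 4 were detected, and together they summed to 27.4 TPM in replicate 1 and 27.1 TPM in replicate 2. Of the 6 pairs, 2 differed beyond the limit, Pfkfb3 over Pfkfb1 and Pfkfb3 over Pfkfb4. The second of these was within the limit under 4 alternatives, with values of 0.39 on the log2 scale by reads over 1 transcript length and 0.53 by protein-coding transcripts. Both were within it when the limit was the 99th percentile. Pfkfb3 was also the only gene of the 40 whose leading transcript by TPM differed between the libraries. In replicate 1 Pfkfb3-205 with 26.5% of TPM barely led Pfkfb3-206 with 26.4%, while Pfkfb3-206 led in replicate 2 with 40.1%. By reads Pfkfb3-206 led in both libraries, with 42.1% in replicate 1 and 58.0% in replicate 2.

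Between the pools, 2 of the 38 detected genes (5.26%) lay beyond the replicate limit, where 5.01% of all 15108 detected genes did by construction. Pgam2 was higher in replicate 1, as were 2.21% of detected genes, and Pklr was lower, as were 2.80%. A share this near the background is not a result about the glucose enzymes as a group. The median log2 ratio of the 38 detected genes was -0.045, beside -0.018 over all detected genes. The other 36 stayed within the limit and ranged between -0.24 for Eno2 and 0.45 for Pdk4. Eno3 lay just inside the limit with 0.36 against 0.37 and passed it under 5 of the alternative scalings.

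**Figure D3:**
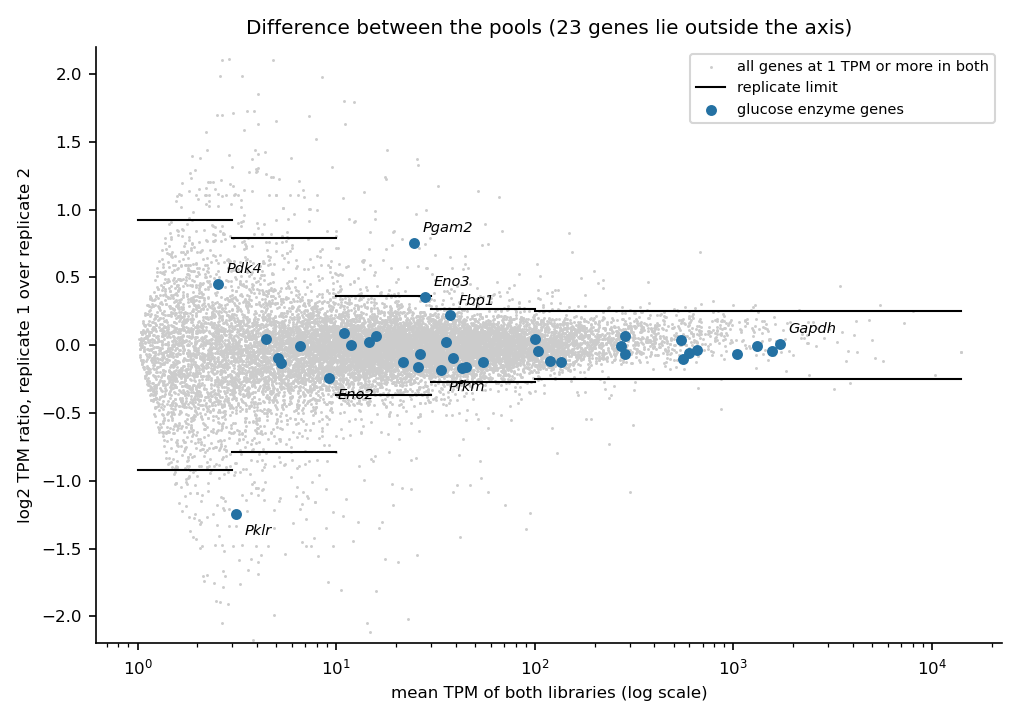
Log2 TPM ratio of replicate 1 over replicate 2 against mean TPM (log axis) for all detected genes (grey) and the 38 detected glucose enzyme genes (blue), with the replicate limit of each level bin as black lines. Pgam2 lies above the limit at 0.75 and Pklr below it at -1.25, and 23 genes fall outside the plotted range.

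Pgam2 had 31.1 TPM from 564 reads in replicate 1 and 18.4 TPM from 360 reads in replicate 2. Scaled to depth, the ratio of its reads was 1.70 (95% Clopper-Pearson interval 1.49 to 1.95, counting error only). Eno3 had 1010 reads in replicate 1 and 769 reads in replicate 2, a scaled ratio of 1.43 (1.30 to 1.57). Both genes encode muscle isozymes, and the skeletal muscle markers moved the same way. Of 15 such markers, 13 were detected, 12 were beyond the limit and higher in replicate 1, and none was beyond it and lower. Their summed level was 603 TPM in replicate 1 and 329 TPM in replicate 2. Acta1, skeletal actin, had 190 TPM in replicate 1 and 107 TPM in replicate 2. Mylpf, the fast myosin light chain, had 67.7 TPM in replicate 1 and 40.7 TPM in replicate 2. No marker of the list was at 0 in both libraries. The muscle-type genes Pfkm, with a log2 ratio of -0.18, and Fbp2, with 0.0049, lay within the limit. The part of muscle RNA in the level of Pgam2 and Eno3 was not tested.

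Pklr went the other way, with 122 estimated reads in replicate 1 and 248 in replicate 2, a scaled ratio of 0.536 (0.427 to 0.667, counting error only). Markers of liver moved with it. Of 14 liver markers, 12 were detected and 11 were beyond the limit and lower in replicate 1, with summed levels of 288 TPM in replicate 1 and 573 TPM in replicate 2. The 2 highest were Afp, with 94.3 TPM in replicate 1 and 164 TPM in replicate 2, and Trf, with 56.5 TPM in replicate 1 and 133 TPM in replicate 2. Of 12 erythroid markers, 11 were detected and 5 were beyond the limit and lower in replicate 1. The globins Hba-a2, with 9595 TPM in replicate 1 and 11199 TPM in replicate 2, and Hbb-bs, with 5005 TPM in replicate 1 and 5335 TPM in replicate 2, were the most abundant of these and lay within it. Beyond the limit and lower in replicate 1 were also 7 of 8 adrenal cortex markers, among them Fdx1 and Cyp11a1, and 9 of 11 neuron and chromaffin markers, among them Stmn2 and Th. Of 14 macrophage and leukocyte markers, S100a8 and S100a9 were beyond it and lower, while Lyz2, the most abundant, was within it. Neuronal Eno2 had 8.46 TPM in replicate 1 and 9.99 TPM in replicate 2, within the limit. Of 8 heart markers, led by Tnnt2 and Tnni3, 4 were detected, with Tnnt2 lower and Myh7 higher in replicate 1 beyond the limit. Of 8 adipocyte markers, Fabp4, higher in replicate 1 beyond the limit, and Pparg alone were detected, and Adipoq and Lep were at 0 in both. The part of any of these cell types in the Pklr difference was not tested.

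**Figure D4:**
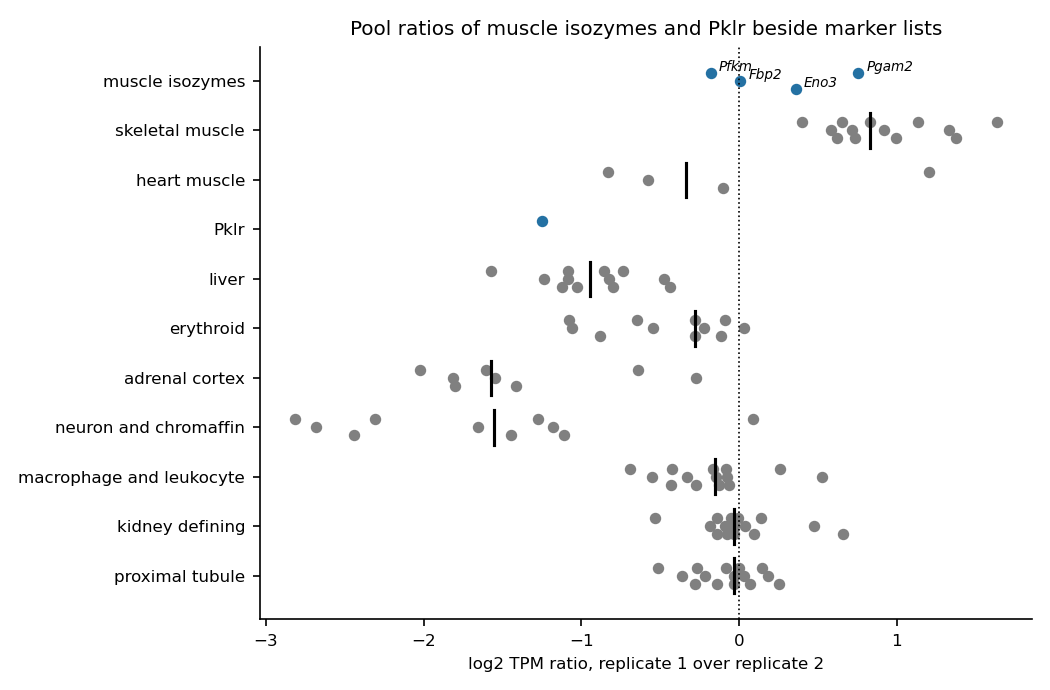
Log2 TPM ratio of replicate 1 over replicate 2 for 4 muscle isozyme genes and Pklr (blue) and for the detected genes of 9 marker lists (grey, black bars are medians). Skeletal muscle markers lie right of 0, as do Pgam2 and Eno3, and liver markers lie left of 0, as does Pklr. The medians of the erythroid, adrenal cortex, neuron and chromaffin, heart muscle and macrophage lists lie left of 0 too. Kidney and proximal tubule markers centre near 0.

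The Pklr transcripts separated by start site. The upstream transcript, Pklr-201, encodes 574 residues, the length of the red cell form, and had 1.86 TPM from 122 reads in replicate 1 and 2.25 TPM from 160 reads in replicate 2. The downstream transcript, Pklr-202, encodes 543 residues, the length of the liver form. It was assigned 0 reads in replicate 1 and 81.4 reads, or 1.10 TPM, in replicate 2. Counting error alone would allow up to 3 reads behind that 0. Reads of Pklr-202 assigned to Pklr-201 instead could be more. A short fragment of 349 nt that starts beside Pklr-202, Pklr-203, had 0 reads in replicate 1 and 7.03 in replicate 2. Reads of the downstream start were thus assigned in replicate 2 alone. The 7.03 reads gave Pklr-203 1.07 of the 4.42 TPM of Pklr in replicate 2. By reads over 1 transcript length, the log2 ratio of Pklr was -0.91, against -1.25 by TPM, and also beyond the limit. The reads of these forms are estimates, because the transcripts share all but their first exons. Pklr also overlaps Hcn3 on the opposite strand, which had 1.30 TPM in replicate 1 and 2.49 TPM in replicate 2. No source used here says whether counting used strand, so their overlapping reads cannot be told apart. Opposite-strand genes at 1 TPM or more overlap 12 of the 40 genes in all, a share that was not computed over all genes.

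Promoter windows of Pklr and Pgam2, the genes beyond the limit, are shown for reference. Each spans 250 bases before to 50 after a RefSeq start on GRCm38.p6, which need not be the start of a measured transcript. Pklr-201 and Pklr-202 start inside their windows, at 89136142 and 89136572, while Pgam2-201 starts at 5803733, downstream of its window. Both Pklr windows lie on the plus strand of chromosome 3, at chr3:89135892-89136191 for the upstream start and chr3:89136373-89136672 for the downstream start. In these windows the core of the GATA motif, AGATAA, searched on both strands, is in capitals. It occurs once in the upstream window, just before the start, and not in the downstream window, and 11.2% of all 32851 promoter windows hold it. No motif chosen for liver or kidney was searched in either window. GATA1 is known to act on the red cell promoter of the human gene.
Pklr upstream promoter: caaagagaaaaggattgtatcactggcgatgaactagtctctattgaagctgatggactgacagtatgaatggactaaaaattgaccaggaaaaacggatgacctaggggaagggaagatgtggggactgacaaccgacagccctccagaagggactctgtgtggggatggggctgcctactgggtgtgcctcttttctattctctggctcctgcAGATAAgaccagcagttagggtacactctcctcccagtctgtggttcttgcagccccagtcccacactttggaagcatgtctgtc
Pklr downstream promoter: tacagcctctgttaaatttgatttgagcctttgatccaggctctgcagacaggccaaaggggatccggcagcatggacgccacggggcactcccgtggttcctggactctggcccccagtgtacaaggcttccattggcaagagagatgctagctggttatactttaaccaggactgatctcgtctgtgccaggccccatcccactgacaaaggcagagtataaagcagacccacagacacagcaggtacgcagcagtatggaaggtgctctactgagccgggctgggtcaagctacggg

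The Pgam2 window lies on the minus strand of chromosome 11 at chr11:5803747-5804046. Capitals mark the only match to the MEF2 site, the motif of the muscle factor MEF2, searched on both strands. Of all promoter windows 3.19% hold such a match. Among the 62 windows of the 40 genes, 2 do, a like share, and they belong to Pgam2 and Pfkfb1. The Pgam2 window also holds 5 matches to the E-box CANNTG, the motif of the muscle factors of the MyoD family, which 72.3% of all windows hold. The Eno3 window holds no MEF2 match and 2 E-boxes. The core of the hypoxia motif, ACGTG, occurs in windows of 18 of the 40 genes, in 22 of their 62 windows, and in 19.6% of all windows. A match describes letters and not binding.
Pgam2 promoter: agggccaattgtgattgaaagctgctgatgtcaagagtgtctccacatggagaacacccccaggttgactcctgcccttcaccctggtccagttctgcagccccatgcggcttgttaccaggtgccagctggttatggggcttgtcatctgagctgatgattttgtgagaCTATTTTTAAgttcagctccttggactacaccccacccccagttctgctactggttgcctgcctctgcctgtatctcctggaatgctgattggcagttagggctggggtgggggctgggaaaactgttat

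The level of some genes rested on short annotated fragments. In TPM, reads are divided by transcript length, so a short transcript with few reads can hold much of a gene's level. For 29 of the 40 genes, protein-coding transcripts held at least 90% of TPM in both libraries. For 6 genes they held under 50% in at least 1 library: Hk2, Hk3, Gapdh, Eno2, Pdk1 and Pfkfb2. The rest of their TPM was in processed transcripts, retained introns or transcripts marked for nonsense-mediated decay, here counted together as non-coding.

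**Figure D5:**
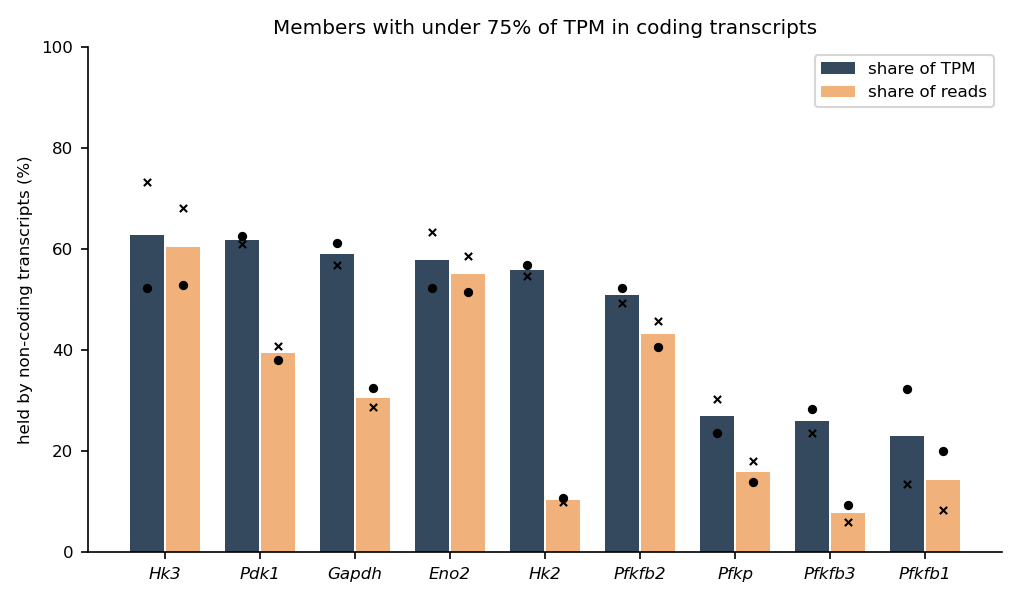
Share of TPM (dark) and of reads (orange) held by non-coding transcripts (%), mean of both libraries as bars, with replicate 1 as dots and replicate 2 as crosses, for the 9 genes with under 75% of TPM in coding transcripts in at least 1 library. For Hk2 the share of TPM was 56.9% in replicate 1 and 54.7% in replicate 2 and that of reads 10.8% in replicate 1 and 9.93% in replicate 2, while for Eno2 and Hk3 the shares of TPM and reads lie close together.

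Gapdh was the clearest case among abundant genes. Its 483 nt fragment Gapdh-208 held 60.4% of Gapdh TPM in replicate 1 and 55.8% in replicate 2, while its share of reads was 30.8% in replicate 1 and 27% in replicate 2. The main coding transcript, Gapdh-203 with 1420 nt, held a share of TPM of 38.1% in replicate 1 and 39.9% in replicate 2. Its share of reads was 66.9% in replicate 1 and 66.5% in replicate 2. When all reads of each gene were divided by the length of the transcript with most reads, a scale chosen after seeing the data, Gapdh had 1052 TPM in replicate 1 and 1099 TPM in replicate 2. On that scale Gapdh ranked 4 among the 40 genes, below Eno1, Ldha and Pkm. Eno1 had 1604 TPM in replicate 1 and 1652 TPM in replicate 2 on it. Ldha had 1370 TPM in replicate 1 and 1378 TPM in replicate 2. Pkm had 1088 TPM in replicate 1 and 1137 TPM in replicate 2. Hk2 had the lowest ratio to the deposited level, with 8.34 TPM in replicate 1 and 8.29 TPM in replicate 2 against the deposited 16.2 TPM in replicate 1 and 15.4 TPM in replicate 2. Its 594 nt fragment Hk2-202 held 56.9% of TPM in replicate 1 and 54.7% in replicate 2. For 35 of the 40 genes the ratio of this level to the deposited mean lay between 0.8 and 1.2. The other 5 were Hk2 at 0.526, Gapdh at 0.624, Pdk1 at 0.674, Pfkfb3 at 0.702 and Eno2 at 0.799.

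Reads of near-identical copies limit a few members. At 95% identity over at least 300 nt, 6 of the 40 genes had copies elsewhere in the genome, 77 in all, of which 70 were copies of Gapdh. The highest copy of each was Gm14760 for Gapdh, Pgk1-rs7 for Pgk1, Pgam1-ps2 for Pgam1, Gm4735 for Eno1, Gm5514 for Ldhb and Gm1840 for Gpi1. Pgk1-rs7 had 32.1 TPM in replicate 1 and 35.9 TPM in replicate 2. Pgam1-ps2 had 51.8 TPM in replicate 1 and 56.4 TPM in replicate 2. Gm4735 had 39.3 TPM in replicate 1 and 34.0 TPM in replicate 2. As a share of the level of the gene, summed copies of Pgk1 came to 12.4% in replicate 1 and 12.9% in replicate 2. Those of Pgam1 came to 9.60% in replicate 1 and 9.73% in replicate 2, those of Gapdh to 5.78% in replicate 1 and 5.28% in replicate 2, and those of the other 3 genes to under 4%. The quantifier's own standard deviation of the count, which covers the sharing of reads, was largest for Pgk1, at 167 of 12335 reads in replicate 1 and 150 of 12695 reads in replicate 2. It was 0 for Aldoa and Pkm.

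Genes of the same pathways outside the 40 were taken from a list of the pathways' members. Of 31 further pathway genes, 23 were detected, where 62.3% of nuclear protein-coding genes were. Among the highest were Mpc2, Pgls, Pdhb and Mpc1. Mpc2, a subunit of the mitochondrial pyruvate carrier, had 256 TPM in replicate 1 and 211 TPM in replicate 2. Pgls, the lactonase of the pentose phosphate pathway, had 190 TPM in replicate 1 and 200 TPM in replicate 2. Pdhb, a pyruvate dehydrogenase subunit, had 185 TPM in replicate 1 and 174 TPM in replicate 2. Mpc1, the other carrier subunit, had 147 TPM in replicate 1 and 134 TPM in replicate 2. Mpc2 was the 1 of these 31 beyond the replicate limit, with a log2 ratio of 0.28. Below 1 TPM in both libraries were Gapdhs, Pgk2, Eno4, Ldhc, Pdha2, Tktl1 and Tktl2, of which Gapdhs, Pgk2, Ldhc and Pdha2 are known as genes of the male germ line. Pgk2, Pdha2 and Tktl2 had no reads in either library. Ldhd, a D-lactate dehydrogenase, had 0.970 TPM in replicate 1 and 1.03 TPM in replicate 2 and missed the detection threshold in replicate 1. The ribose-5-phosphate isomerase Rpia had 2.83 TPM in replicate 1 and 2.48 TPM in replicate 2.

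All 15 regulators of glucose enzymes that were listed were detected, and none lay beyond the limit between pools. The 5 highest were Myc, Mycn, Hif1a, Nfe2l2 and Srebf1. Myc, a growth-driving factor, had 95 TPM in replicate 1 and 99.9 TPM in replicate 2. Mycn had 71.6 TPM in replicate 1 and 69.4 TPM in replicate 2. Hif1a had 68.4 TPM in replicate 1 and 62.0 TPM in replicate 2. Nfe2l2 had 58.3 TPM in replicate 1 and 56.9 TPM in replicate 2. Srebf1 had 45.2 TPM in replicate 1 and 47.8 TPM in replicate 2. Myc, Mycn and Hif1a are known inducers of glycolytic genes, Nfe2l2 of pentose phosphate genes and Srebf1 of genes of lipid synthesis.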

How the data were processed

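The data are 2 total RNA-seq libraries of embryonic kidney. Extraction used mirVana, RNA over 200 nt was measured and spike-ins were added, and a SMARTer low-input manual is listed, per the labels. Per the text files deposited beside the tables, mm10 and GENCODE M4 were used. No aligner, quantifier or strand setting is given in the sources used here.

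The deposited expected counts are estimated reads, with reads matching several features shared out by the authors' quantifier. The posterior standard deviation of each count, read as a score, is the authors' own, per the file headers. The deposited TPM values are scaled per length and to a fixed sum over all features. The deposited FPKM values served as an alternative only. The percent of a gene's TPM in each transcript is the authors' column, per the file headers. A fold or ratio between libraries was computed here from the deposited TPM.

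Symbols, classes, exons and coordinates came from GENCODE M21 (GRCm38, the assembly of mm10) by identifier without version, so transcript structures may differ from M4. Promoters came from RefSeq on GRCm38.p6, and all 40 genes matched. Copies were found with BLAST 2.17.0 (95% identity, 300 nt, 50% of the copy covered). Pairs used log2(TPM + 1). The members, gene lists and tests were chosen with earlier results of these data known. All 40 members are named, with the 5 highest, less any not reported, and the undetected of the other pathway genes, all splicing factors, the 5 highest regulators and the 2 highest genes of each marker list. Hcn3, G6pc2, G6pc3, Rpia, Myh7 and Aqp2 were named after their values were seen. Some genes of these pathways are not reported here. With 1 group and 2 libraries (1 degree of freedom), groups could not be compared, and p-values were not computed. Expected counts were rounded to whole numbers for edgeR 4.0.16 (TMM factors) and DESeq2 1.42.0 (size factors), used only as alternatives for scaling. Python 3.11.15, pandas 2.3.3, NumPy 2.4.6, SciPy 1.17.1 and R 4.3.3 were used. Intervals and the floor of 3 counts cover counting error only. No column of another sample was present (0 columns).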

Additional observations from a re-analysis of the deposited data

How the results depend on the processing

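No paired analysis was possible because the series holds 1 group. The number of detected members was 38, and between 34 (at 5 TPM) and 40 (at 0.5 TPM, or at 10 expected counts) under every alternative run, 38 to 39 with either library left out. The number of isozyme pairs beyond the limit was 22, and lay between 16 (99th percentile as the limit) and 23, and at 22 to 23 in either library alone. The pool ratios of Pgam2, Eno3 and Pklr kept their sign under every alternative run for them. Some ratios within the limit did not. Gapdh, Pdk1, Pfkfb1 and Pfkfb3 were higher in replicate 1 by TPM but lower by reads over 1 transcript length, and Aldoc the reverse. No pair beyond the limit changed sign. Within the limit, counting protein-coding transcripts only changed the sign of Pfkfb1 over Pfkfb2 (0.054, from -0.48 on the log2 scale) and of Pfkfb2 over Pfkfb4 (-0.58, from 0.27). Families with 1 dominant member numbered 4, but 9 at a share above 50 percent and 6 by expected counts, where hexokinase and fructose bisphosphatase join. They numbered 5 by reads over 1 transcript length and by protein-coding transcripts only, and 4 to 5 in either library alone. Members beyond the limit between pools numbered 2, but 0 with the 99th percentile as the limit, where neither Pgam2 nor Pklr passed. They numbered 3, with Eno3, by FPKM, TPM rescaled over nuclear protein-coding genes, TMM factors, DESeq2 size factors and reads over 1 transcript length. By TMM-scaled counts the log2 ratios were 0.77 for Pgam2, 0.52 for Eno3 and -0.90 for Pklr. The M2 share of Pkm was 95.4% to 95.8% in either library alone. Reads over 1 transcript length and the count of protein-coding transcripts only were chosen after seeing the data. With 2 libraries, members under 10 TPM are limited most, since their replicate limit is 0.79 or 0.92 in log2.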
